A study of Mus musculus with 16 samples.

Results

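The genes described here mark the large macrophages that live in the resting peritoneal cavity. The list named 9 genes, Gata6, Timd4, Icam2, Selp, Alox15, F5, F10, Prg4 and Fn1, and its members were all probes that carry 1 of these symbols in the platform annotation. Of the 9 genes, 7 had a probe, 1 each, out of 15161 named genes and 24607 probes on the array. Prg4 and Fn1 matched no probe by symbol and were not analysed here. Of the 7, 6 exceeded a limit for noise often enough to be tested and Alox15 did not.

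RNA came from thioglycollate-elicited peritoneal macrophages of female mice, 15 weeks old, all Apoe-/- and all on a Western diet for 10 weeks from 5 weeks of age. Per the labels, 6 mice carried SR-uPA+/0, a transgene that overexpresses the protease uPA in macrophages, and 6 were nontransgenic. Cells were collected 5 days after the injection of thioglycollate, an irritant that draws monocytes into the cavity, and those that adhered to plastic within 2 h were kept. Each genotype's RNA was also pooled and hybridised 2 times, so that Illumina Mouse Ref-8 v1.1 BeadChips gave 16 arrays in all. No uninjected mouse or freshly isolated resident cell was in the design, so the readings say how much signal the genes gave and not what fraction of a resident level this was.

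Large peritoneal macrophages arise largely before birth, renew themselves and hold an identity that the zinc-finger factor GATA6 maintains in answer to retinoic acid made in the peritoneal lining and the omentum. They carry the phosphatidylserine receptor TIM-4 (Timd4) and the adhesion molecule ICAM-2, and mouse peritoneal macrophages make coagulation factors V and X. After an inflammatory stimulus these cells become hard to recover by lavage, a change known as the macrophage disappearance reaction, while monocyte-derived macrophages fill the cavity. Several of the genes are also known from other cells: Gata6 from mesothelium and other mesodermal tissue, Selp and F5 from platelets and megakaryocytes, Icam2 from endothelium and platelets, and Alox15 from eosinophils.

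GATA6 binds the letters GATA with preferred flanking bases, and the promoter table held windows of 300 bases (250 before to 50 after a start) for 4 of the genes, Timd4, Selp, F5 and F10 (RefSeq, GRCm38.p6). None of the 4 held AGATAA or TGATAA on either strand, against 18.6% of all 32851 windows of that length, and none held the shorter GATAA, against 25.4%. The bare core GATA, a motif chosen after the first was seen to be absent that also lies inside both longer motifs, stood 2 times in the window of Timd4 and 2 times in that of Selp and was absent from those of F5 and F10, whereas 57.9% of all windows held it. No match says only that these letters are not in these windows. The 2 windows with a core are shown, both on the plus strand, at chr11:46810549-46810848 for Timd4 and chr1:164115014-164115313 for Selp, with the cores in capitals (GATA, or TATC where the core is on the other strand).
Timd4: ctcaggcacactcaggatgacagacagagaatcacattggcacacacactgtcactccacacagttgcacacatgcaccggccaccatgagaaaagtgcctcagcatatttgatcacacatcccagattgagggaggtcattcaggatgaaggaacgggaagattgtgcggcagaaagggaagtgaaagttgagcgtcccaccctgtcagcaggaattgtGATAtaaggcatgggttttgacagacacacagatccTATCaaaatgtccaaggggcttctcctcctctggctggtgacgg
Selp: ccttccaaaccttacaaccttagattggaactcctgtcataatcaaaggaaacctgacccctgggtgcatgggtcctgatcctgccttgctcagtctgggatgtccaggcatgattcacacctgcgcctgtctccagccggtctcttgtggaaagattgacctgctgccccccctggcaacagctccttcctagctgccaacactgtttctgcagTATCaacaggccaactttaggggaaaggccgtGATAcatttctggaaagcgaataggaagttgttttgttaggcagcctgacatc

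Selp and F5 are neighbours on chromosome 1, Selp at chr1:164115264-164150026 and F5 at chr1:164151835-164220277, with 1808 bases between them. Icam2 (chr11:106377656-106388139), Timd4 (chr11:46810786-46844333) and Alox15 (chr11:70344147-70390538) share chromosome 11 without being neighbours. F10 lies at chr8:13037308-13056676 and Gata6 at chr18:11052510-11085636.

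Values are the authors' deposited intensities, already corrected for background and normalized, and a reading counted as above noise where it exceeded the one-sided 5% point of noise, estimated from the root mean square of that array's values below 0, which came to between 56.8 and 56.9 units. Between 9543 and 9551 probes exceeded it on each array, a near equality that follows from that normalization. The macrophage label held for the 6 measured defining markers, among them Adgre1 (F4/80), which were above noise on all 12 animal arrays, with a summed intensity of 109700 to 122773 units in nontransgenic and 113736 to 127128 in transgenic animals. Plau, the gene of uPA, did not separate the labels, with 513 to 3527 units in nontransgenic and 536 to 2907 in transgenic animals (log2 difference -0.10, SE 0.42, limma adjusted p = 0.967). The array of transgenic 1 and that of transgenic 6 stood slightly apart, with a median correlation with the other animals of 0.9693 and 0.9727 against 0.9757 to 0.9799 for the other 10. Where leaving out either of them changed a result's call or size, the value without it is given.

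RNA of Gata6, the gene of the transcription factor of the resident state, was measurable in every animal 5 days after thioglycollate. Its intensity in the 6 nontransgenic animals ran from 355 through a median of 543 to 944 units, and in the 6 transgenic animals from 109 through 227 to 791. All 12 readings were above noise. The groups overlapped through 1 animal: 5 of the 6 transgenic readings, between 109 and 299.7 units, lay below every nontransgenic reading, and transgenic 6, at 791, lay above 5 of the 6 nontransgenic ones. Means were 576 ± 211 units in nontransgenic and 302 ± 248 in transgenic animals (SD, n = 6).

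Timd4, the TIM-4 receptor for dying cells, gave a dim signal and the same split of the genotypes, though not the same order of animals within them. It ran from 94.95 through 118 to 138 units in nontransgenic and from 60.4 through 73.0 to 138 in transgenic animals. All 12 readings were above noise, although only 7 remained so when the limit was made 1.5 times as high. Here too 5 transgenic animals, at 60.4 to 79.9 units, lay below all nontransgenic ones, and transgenic 6, at 138, was level with the highest of them.

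Icam2, an adhesion molecule by which large peritoneal macrophages are gated in flow cytometry, ran from 491 through 848 to 1004 units in nontransgenic and from 368 through 699 to 1502 in transgenic animals. The nontransgenic readings lay wholly within the range of the transgenic ones. The highest reading was again that of transgenic 6, and without it the transgenic animals ended at 926 units.

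F10, which encodes coagulation factor X, the protease that makes thrombin from prothrombin, was far above noise in every animal. It ran from 4727 through 6497 to 7632 units in nontransgenic and from 4364 through 6459 to 9709 in transgenic animals. Transgenic 6 and transgenic 3, at 9709 and 9619, exceeded all others, and transgenic 1 and transgenic 2, at 4364 and 5082, were the lowest of their genotype.

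Selp encodes P-selectin, an adhesion receptor for leukocytes. Its readings ran from 59.9 through 134 to 162 units in nontransgenic and from 44.99 through 151 to 183 in transgenic animals. They fell into a low and a higher range within each genotype: 76.3 or less in nontransgenic 2 and 3 and 65.5 or less in transgenic 1 and 4, against 129.7 or more in the other 8 animals. Of 12 readings 11 were above noise.

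F5, the gene of factor V, the cofactor with which factor X acts, was near the limit of measurement. It ran from 17.6 through 43.6 to 85.9 units in nontransgenic and from 32.6 through 78.8 to 96.7 in transgenic animals. It was above noise in 1 nontransgenic and 4 transgenic animals, so its level rests largely on readings that cannot be told from background.

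Alox15 encodes the 12/15-lipoxygenase, an enzyme for which resident peritoneal macrophages are a classical source in the mouse. Its probe was not well above background on any array, from -42.6 to -13.1 units in nontransgenic and from -56.2 to -7.69 in transgenic animals. The 4 pool arrays, at -49.1 to -11.0 units, were below noise as well, and no fold is given. Over the 7 probes, 64 of 84 animal readings were above noise.

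**Figure D1:**
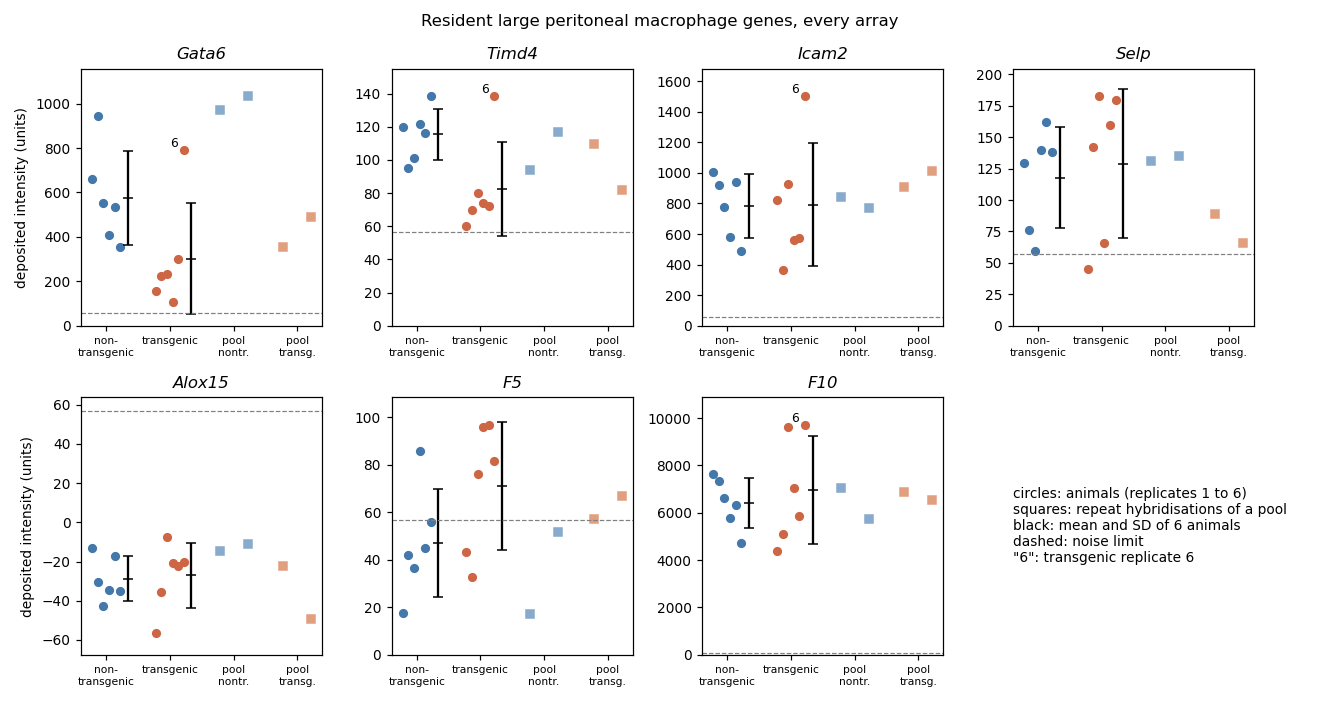
Deposited intensity (linear axes, units) of each of the 7 genes on all 16 arrays; circles are animals in the order of replicates 1 to 6, squares the 2 hybridisations of each pool, black bars the mean and SD of 6 animals, and the dashed line the noise limit. Transgenic 6 is the highest of its genotype for Gata6, Timd4, Icam2 and F10, and Alox15 lies below the noise limit on every array.

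The genotype comparison asked whether macrophages labelled as carrying the uPA transgene differ in these genes; Plau itself, as given above, did not differ detectably. None of the 6 tested genes passed after adjustment over all tested probes, where 0.731% of 10534 probes passed (limma, Benjamini-Hochberg, threshold 0.05), 0.627% lower and 0.104% higher in transgenic. The lowest of the 6 was Gata6, with a log2 difference, transgenic minus nontransgenic, of -0.87 with a 95% interval from -1.47 to -0.27 and SE 0.28 (adjusted p = 0.296 by limma, two-sided exact permutation p = 0.0325). Of all tested probes, 2.35% had an unadjusted limma p at or under that of Gata6 (0.00697), and 8.53% had one under 0.05. The call turned on 1 animal: without transgenic 6 the difference was -1.14 and passed (adjusted p = 0.0152), and without transgenic 1 and transgenic 6 it was -1.09 and passed (adjusted p = 0.0371). The sign was negative without any single animal.

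Timd4 had a log2 difference of -0.25 with a 95% interval from -0.49 to -0.01 and SE 0.11 (adjusted p = 0.554 by limma, two-sided exact permutation p = 0.0260). It was -0.53 (adjusted p = 0.390) without the normexp step, which adds to every value before the logarithm is taken. All Timd4 readings lay above the floor of 16 units used in that alternative. Fewer cells of a type and less RNA per cell cannot be told apart in these bulk samples, for Timd4 and Gata6 alike.

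Of the other 4 genes, 3 had differences near 0 with intervals that leave room for moderate change either way. Icam2 had -0.06 (95% interval -0.58 to 0.46, limma adjusted p = 0.964) and F10 0.07 (-0.34 to 0.47, adjusted p = 0.953). Selp had 0.05 (-0.34 to 0.44, adjusted p = 0.964). The sign turned for Icam2, Selp and F10 when single animals were left out. F5, the neighbour of Selp, had 0.22 (-0.07 to 0.51, adjusted p = 0.713), and 0.63 (adjusted p = 0.691) without normexp. It was above noise in 1 nontransgenic and 4 transgenic animals, so it entered the test through the genotype in which it read higher. No direction is therefore read from F5.

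**Figure D2:**
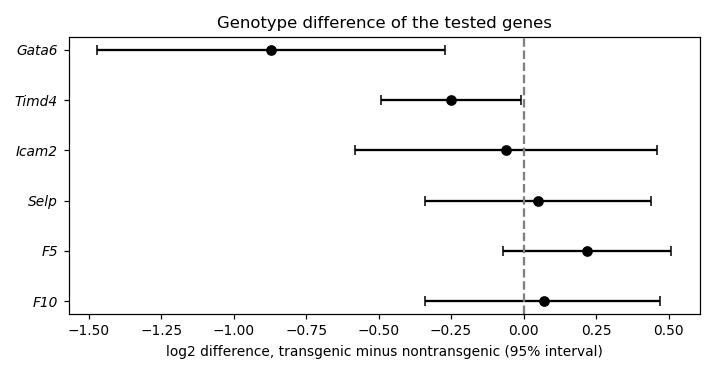
Log2 difference, transgenic minus nontransgenic (x axis), with the 95% interval of the limma fit, for the 6 tested genes over 6 animals a genotype. The intervals of Gata6 and Timd4 lie below 0 before adjustment for the number of probes, and those of the other 4 genes span 0.

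The animals of one genotype differed widely for some of these genes. The SD between animals of a genotype, pooled over both, was 0.60 on the log2 scale for Gata6 and exceeded that of 98.1% of all tested probes. It was 0.51 for Icam2 (96.0%), 0.38 for F10 (87.3%) and 0.36 for Selp (85.1%), whereas F5 with 0.23 (46.1%) and Timd4 with 0.16 (13.5%) lay near or below the median probe, at 0.24. Among the 500 tested probes nearest in mean level, Gata6 exceeded 98.2%, Icam2 93.6%, Selp 88.4% and F10 85.4%. On the intensity scale the highest transgenic animal was 7.26 times the lowest for Gata6 and 4.08 times for Icam2, and the highest nontransgenic animal was 2.66 and 2.05 times the lowest. Without transgenic 6 the transgenic ranges were 2.75 for Gata6 and 2.51 for Icam2. The range of Icam2 was then still wider than in nontransgenic animals, and it was 2.69 without transgenic 2 instead. Without transgenic 6 the SD was 0.40 for Gata6, above that of 91.0% of tested probes, 0.41 for Icam2 (91.3%) and 0.09 for Timd4 (0.541%). Without transgenic 1 the SD of Selp was 0.30 (76.1%).

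Repeat hybridisations of the same pooled RNA bear on the part of this spread that comes from the array. For Gata6 they differed by 0.09 on the log2 scale for the nontransgenic and by 0.37 for the transgenic pool. They differed by 0.11 and 0.15 for Icam2, by 0.02 and 0.19 for Selp and by 0.28 and 0.07 for F10. For the dim genes they differed by 0.16 and 0.21 for Timd4, no less than its SD between animals of 0.16, and by 0.38 and 0.09 for F5, where the median probe had a gap of 0.19 in either pool. With 1 gap a pool these are single readings and no test was made.

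**Figure D3:**
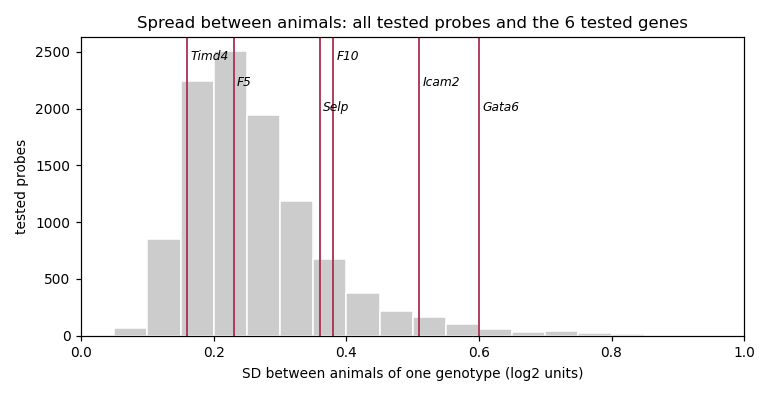
Number of tested probes (y axis) by the SD between animals of one genotype (x axis, log2 units, bins of 0.05), with lines at the 6 tested genes. Gata6 (0.60) and Icam2 (0.51) lie in the upper tail of the probes and Timd4 (0.16) below the median probe (0.24).

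The pools were set against the mean of the animals of their genotype. For Icam2 the mean pool reading was 1.03 times the mean of the animals in nontransgenic and 1.21 times in transgenic, for F10 0.996 and 0.964 times and for Timd4 0.912 and 1.16 times. For F5, near noise, it was 0.727 and 0.873 times. Gata6 had the highest ratios of the 6 genes in both genotypes. The nontransgenic pool gave 973 and 1034 units, both above all 6 nontransgenic animals, and 1.74 times their mean. Of all tested probes 3.71% had both nontransgenic pool readings above every animal. The transgenic pool gave 357 and 492 units, 1.40 times the mean of its animals. Selp in the transgenic pool, at 89.0 and 66.0 units, was 0.600 times that mean, and in the nontransgenic pool 1.13 times.

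Single animals stood at the end of their genotype for several genes at a time. Transgenic 6 was the highest transgenic animal for 4 of the 6 tested genes, Gata6, Timd4, Icam2 and F10, and ranked 2 for Selp and 3 for F5. It was the highest of its genotype for 20.7% of all tested probes. Transgenic 1 was the lowest for Timd4, Selp and F10 and next to the lowest for Gata6 and F5. Nontransgenic 6 was the lowest nontransgenic animal for Gata6, Icam2 and F10 but the highest for Timd4. The genes therefore did not rank the animals in 1 order.

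Whether the genes moved together between animals was measured as the correlation of their log2 values over the 12 animals, for 15 pairs. None of the 15 pairs passed after adjustment (two-sided permutation test, 100000 resamples). The strongest were Icam2 with F10 (Pearson r = 0.69, permutation p = 0.0129, adjusted 0.109; Spearman rho = 0.69, permutation p = 0.0168, adjusted 0.192) and Gata6 with Timd4 (r = 0.69, permutation p = 0.0146, adjusted 0.109; rho = 0.64, permutation p = 0.0273, adjusted 0.192). Without the 2 animals farthest from the median of the first gene, r was 0.51 for Icam2 with F10 and 0.81 for Gata6 with Timd4. Without transgenic 1, Icam2 with F10 passed (r = 0.84, adjusted permutation p = 0.0210). Without transgenic 6 it had r = 0.57 (adjusted permutation p = 0.480) and without both 0.77 (adjusted 0.117). Gata6 with Timd4 had r = 0.63 (adjusted permutation p = 0.480) without transgenic 6 and 0.55 (adjusted 0.363) without both.

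Within genotypes the values were as follows. Icam2 with F10 had r = 0.91 in nontransgenic (exact permutation p = 0.0125, adjusted 0.177) and 0.64 in transgenic animals (exact permutation p = 0.164, adjusted 0.378; n = 6 each). Gata6 with Timd4 had r = -0.82 in nontransgenic (exact permutation p = 0.0431, adjusted 0.190) and 0.89 in transgenic animals (exact permutation p = 0.0597, adjusted 0.378). The transgenic value rested on transgenic 6: r was 0.23 over the other 5 animals and -0.08 without transgenic 1 as well, whereas the nontransgenic value stayed between -0.92 and -0.65 without any single animal. The pooled relation of Gata6 with Timd4 therefore did not hold within nontransgenic animals. In them Gata6, Icam2 and F10 formed 1 set of positive pairs (r of 0.81 to 0.91) and Timd4 ran against all 3 (r of -0.82 to -0.62), while in transgenic animals all 15 pairs were positive. Without transgenic 6, the highest animal for 4 of the genes, 12 of the 15 transgenic pairs were positive, and Gata6 had r = -0.06 with Icam2 and 0.05 with F10. Timd4 with Icam2 in nontransgenic animals had r = -0.23 without nontransgenic 6, and Timd4 with F10 had -0.39. No within-genotype pair passed after adjustment, and the difference between genotypes was not tested. The neighbours Selp and F5 had r = 0.26 (permutation p = 0.413; rho = 0.34, permutation p = 0.277), with 7 of the 12 F5 readings below noise.

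**Figure D4:**
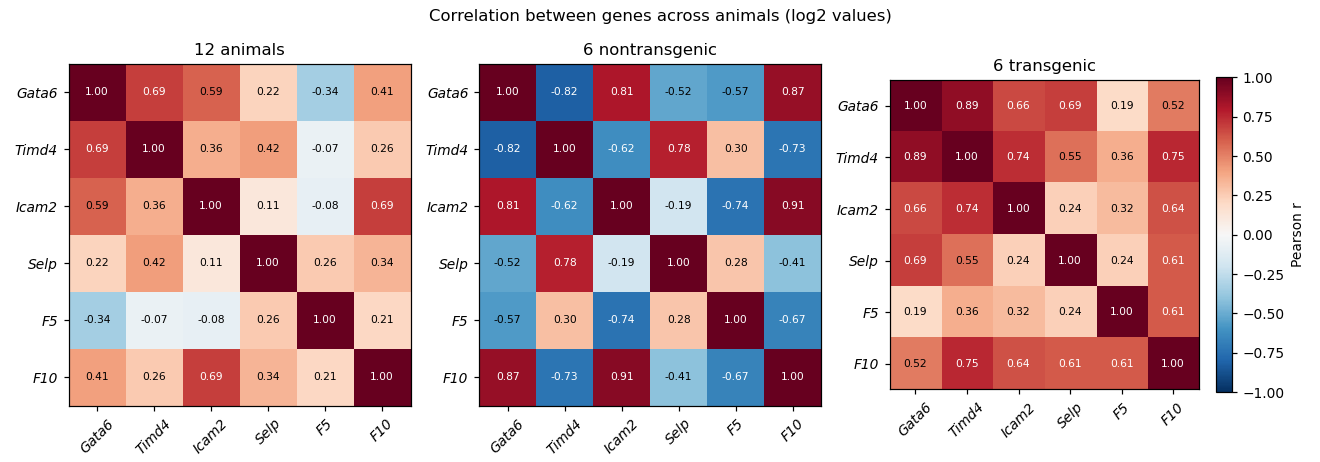
Pearson r (colour and printed value) between the log2 values of the 6 tested genes over all 12 animals and within each genotype of 6. Timd4 is negatively correlated with Gata6, Icam2 and F10 in nontransgenic animals and positively in transgenic animals, where 4 of the genes share their highest animal, transgenic 6.

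Since several of the genes are known from other cells, each was set against the mean log2 level of 8 marker lists, 48 pairs in all. Gata6 was in each of the 3 pairs that passed. With 16 other genes known from large peritoneal macrophages it had r = 0.83 (permutation p = 8.30e-04, adjusted 0.0336; rho = 0.83, permutation p = 0.00179, adjusted 0.0430), and 0.67 without the 2 animals farthest from the median of that mean. Within genotypes r was 0.78 in nontransgenic (exact permutation p = 0.0667, adjusted 0.570) and 0.76 in transgenic animals (exact permutation p = 0.0833, adjusted 0.683). That mean was itself lower in transgenic animals (9.67 against 9.86, log2), so the pooled r includes the genotype shift. Gata6 had r from -0.58 (Gas6) to 0.61 (Bhlhe40) with single genes of that list and -0.05 with Adgre1, values that were not tested. With 6 mesothelial markers it had r = 0.82 (permutation p = 0.00140, adjusted 0.0336; rho = 0.82, permutation p = 0.00165, adjusted 0.0430), 0.70 without the 2 farthest animals, 0.67 in nontransgenic (exact permutation p = 0.125) and 0.88 in transgenic animals (exact permutation p = 0.00833, adjusted 0.400). Without Wt1, the mesothelial marker with the largest genotype difference, r was 0.76 (permutation p = 0.00524), 0.57 without the 2 farthest animals, 0.64 in nontransgenic (exact permutation p = 0.171) and 0.93 in transgenic animals (exact permutation p = 0.00278). Neither call was stable to the choice of animals. For both lists it was lost without any 1 of 7 animals (nontransgenic 1, 2, 3 and 4 and transgenic 1, 3 and 4), with adjusted permutation p from 0.0610 to 0.194, while r ran from 0.77 to 0.92 for the large peritoneal and from 0.76 to 0.92 for the mesothelial mean. Without transgenic 1 and transgenic 6 the former was 0.92 (adjusted permutation p = 0.00576) and the latter 0.76 (adjusted 0.125).

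The remaining pair was Gata6 with 7 fibroblast markers, whose means did not overlap between genotypes (9.12 to 10.01 in nontransgenic and 7.46 to 8.67 in transgenic animals, log2). No pooled value is therefore given. Within nontransgenic animals r was 0.89 (exact permutation p = 0.0139, adjusted 0.311) and within transgenic animals 0.54 (exact permutation p = 0.274, adjusted 0.889). No pair of Timd4, Icam2, Selp, F5 or F10 with a marker mean passed over the 12 animals. F5 with the small peritoneal mean passed without transgenic 2 (r = 0.83, adjusted permutation p = 0.0353). That mean was higher in transgenic animals (10.85 against 10.27, log2), and F5 was above noise in only 1 nontransgenic and 4 transgenic animals. No relation is therefore read from this r.

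**Figure D5:**
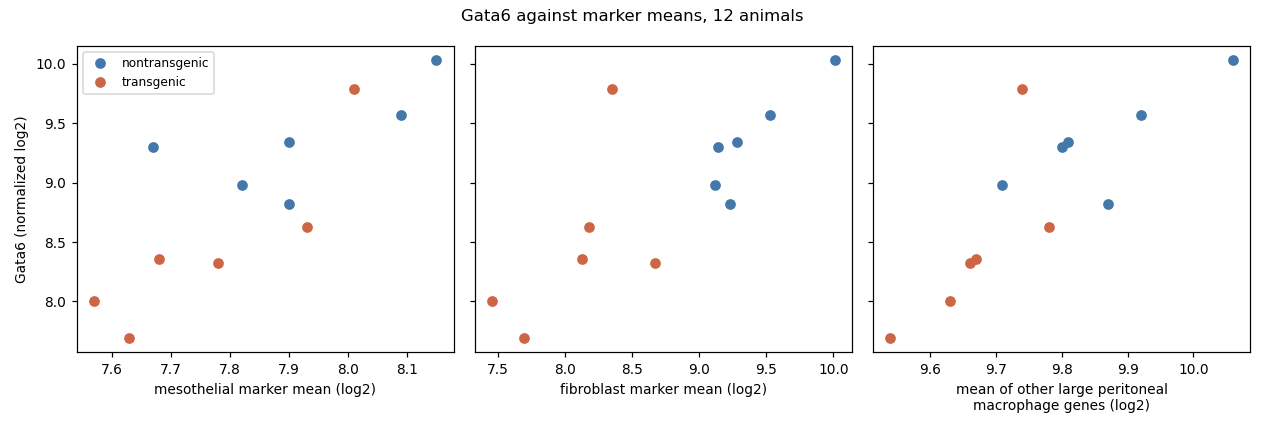
Normalized log2 level of Gata6 (y axis) against the mean log2 level of mesothelial markers, fibroblast markers and other large peritoneal macrophage genes (x axes) in the 6 nontransgenic and 6 transgenic animals. Transgenic 6 has the highest Gata6 level of its genotype, and the fibroblast means of the genotypes do not overlap.

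The levels of those other cells' markers bear on how Gata6 can be read. Of 10 measured mesothelial markers, Upk1b, Krt19, Lrrn4 and Bnc1 were below noise in all 12 animals, and 3, Msln, Krt7 and Wt1, were above it in all. Their summed intensity was 596 to 1361 units in nontransgenic and 487 to 999 in transgenic animals. Wt1, a transcription factor of mesothelium, had 521 ± 172 units in nontransgenic and 287 ± 68.2 in transgenic animals (SD, n = 6; log2 difference -0.66, limma adjusted p = 0.127) and correlated with Gata6 at r = 0.75, while Msln, the surface protein mesothelin, had r = -0.17. These single-gene correlations describe 12 animals and were not tested. The sum over 9 fibroblast markers was 6751 to 13697 units in nontransgenic and 741 to 5543 in transgenic animals. Of the 7 tested ones 4 passed as lower in transgenic animals, where 0.627% of all tested probes did. They were the collagen genes Col5a1, Col6a1, Col1a1 and Col3a1. Col3a1 was above noise in 6 nontransgenic and 0 transgenic animals, so it entered the test only through the genotype in which it read higher. Col5a1 had 429 ± 132 and 72.5 ± 23.7 units (log2 difference -1.61, limma adjusted p = 6.21e-05). Krt8, a keratin gene, had 90.7 ± 45.4 and 58.4 ± 33.0 units (adjusted p = 0.733) and correlated with Gata6 at r = 0.77. The part of mesothelial and fibroblast RNA in the Gata6 reading was not tested.

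For the genes shared with platelets, endothelium and eosinophils, most defining markers gave no signal above noise. Of 6 measured platelet markers Itga2b, Gp1bb, Gp9 and Gp5 were below noise in all 12 animals, and Pf4, a chemokine that macrophages also express, was above it in all (log2 difference -0.34, limma adjusted p = 0.706). Ppbp, another platelet chemokine gene, was above noise in 9 of 12 animals and had -0.07 (adjusted p = 0.931). Of 7 endothelial markers Kdr, Tek, Sele and Tie1 were below noise in all animals, while the 2 tested, Esam and Emcn, had -0.33 and -0.16 (adjusted p = 0.600 and 0.861). Esam was above noise in all 12 animals, with means of 141 units in nontransgenic and 90.8 in transgenic animals, and Emcn in 3. Of 5 eosinophil markers Epx, Prg2, Siglecf and Il5ra were below noise in all animals, as Alox15 was.

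Markers of other cells that the preparation could hold also differed between genotypes. Of 9 tested neutrophil markers 4 rose in transgenic animals, S100a9, S100a8, Retnlg and Pglyrp1, and none fell (median log2 difference 1.17). Over all tested probes 0.104% passed as higher, and the lists were chosen with earlier results of these data known. The summed intensity of the neutrophil markers was 5066 to 18594 units in nontransgenic and 12819 to 46104 in transgenic animals. S100a9, a subunit of calprotectin, rose by 2.42 on the log2 scale (SE 0.44, limma adjusted p = 0.0126). None of 3 B cell markers (median 0.40, Cd79b adjusted p = 0.205) and none of 3 mast cell markers (median -0.13, Cpa3 adjusted p = 0.697) passed, and no T cell marker was bright enough to be tested. The part of these cells in the readings of the 6 genes was not tested.

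Genes that varied most like each member over the 12 animals were taken from 7509 other named genes, without a test because they were picked for it. Those nearest to Gata6 were Gucy1a1 (r = 0.96), a subunit of the nitric oxide receptor, then Fbxw8 (0.93), the actin-bundling gene Fscn1 (0.91), the homeobox gene Hoxa5 (0.91) and Aebp1 (0.90), a gene known from connective tissue. Aebp1 averaged 1720 units in nontransgenic and 661 in transgenic animals (log2 difference -1.27, limma adjusted p = 0.0623). None of the 5 is on the lists used here. Gucy1a1 averaged 170 units in nontransgenic and 64.3 in transgenic animals, and within genotypes its r was 0.95 and 0.94. Hoxa5 averaged 122 and 41.2 units. The lowest readings of Gucy1a1, Hoxa5 and Fscn1, at -9.40, -9.59 and 19.9 units, were below noise. Nearest to Timd4 were Tmem205, Slc6a6, Parva, Nthl1 and Nsmf (r of 0.83 to 0.86). Nearest to Icam2 were Ccs, the copper chaperone of superoxide dismutase, Emg1, Tial1, Cyp2a5 and Selenoi (0.84 to 0.90). Nearest to Selp were Hpcal1, the ribosomal protein gene Rps20, Tnc, the glycolytic enzyme gene Pkm and Ilkap (0.84 to 0.86). Nearest to F5 were Ins2, Csf2rb, a receptor chain for GM-CSF and IL-3, Rbm10, Dok2 and Hfe (0.83 to 0.89), and nearest to F10 were Rangrf, Cxcl14, Cfdp1, Cyp2a5 and Gcnt2 (0.81 to 0.87). Cyp2a5 was the only gene named for 2 members, Icam2 and F10, and it averaged 52.4 and 55.0 units in the genotypes, near the noise limit. Tnc averaged 31.7 and 44.9 units, below that limit. Parva, Ins2 and Cxcl14 also had readings below it, the lowest at 20.2, 33.6 and 7.40 units.

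Beyond the 7 genes, 20 other genes known from large peritoneal macrophages had a probe and 16 were tested. None passed in either direction. Their median log2 difference was -0.05 and 11 of 16 were negative, against a median of 0.01 over all tested probes, of which 52.2% were positive. The mean log2 level of the 16 was 9.86 (9.71 to 10.06) in nontransgenic and 9.67 (9.54 to 9.78) in transgenic animals. The list was chosen with earlier results of these data known, so no test is read from this mean. Aspa, Cd5l, a scavenger receptor family protein of tissue macrophages, and the retinoic acid hydroxylase gene Cyp26a1 were below noise in all 12 animals. The lowest unadjusted p belonged to Tgfb2, Vsig4 and Cxcl13. Tgfb2, a growth factor gene that depends on GATA6 in mouse peritoneal macrophages, had 106 ± 22.3 units in nontransgenic and 60.4 ± 25.4 in transgenic animals (log2 difference -0.38, SE 0.12, limma adjusted p = 0.292), with 3 of 6 transgenic readings above noise. Vsig4, the complement receptor CRIg, had 2366 ± 677 and 1560 ± 408 units (-0.57, SE 0.19, adjusted p = 0.326). Cxcl13, the chemokine that draws B cells into the cavity, had 892 ± 549 and 287 ± 195 units (-1.28, SE 0.46, adjusted p = 0.384). Transgenic 6, high for Gata6 and Timd4, was the highest transgenic animal for Vsig4 (2149 units) and Cxcl13 (544 units) but had 47.6 units of Tgfb2, below noise. Its mean over the 16 genes was 9.74, below the transgenic maximum of 9.78 (log2). Its mesothelial marker mean, 8.01, was the highest of its genotype.

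Genes known from small peritoneal and monocyte-derived macrophages were measured alongside. Of 12 tested, 2 rose in transgenic animals, where 0.104% of all tested probes did, none fell and none had a negative difference (median 0.66). Mgl2, a lectin, rose by 0.86 on the log2 scale (SE 0.16, limma adjusted p = 0.0126), although its other probe had 0.63 and did not pass (adjusted p = 0.165). The fractalkine receptor gene Cx3cr1 rose by 0.78 (SE 0.16, adjusted p = 0.0263). Ly6c1, a monocyte surface antigen gene, had 123 ± 22.1 units in nontransgenic and 238 ± 78.9 in transgenic animals (adjusted p = 0.0979). Ccr2, the receptor by which monocytes leave the marrow, and Cd226 were below noise in all 12 animals. The mean of these 12 genes was not significantly correlated with Gata6 after adjustment (r = -0.66, permutation p = 0.0230, adjusted 0.221; rho = -0.68, permutation p = 0.0186, adjusted 0.224), with -0.61 without the 2 farthest animals, and within genotypes r was -0.68 in nontransgenic (exact permutation p = 0.131) and 0.01 in transgenic animals (exact permutation p = 0.985). Without transgenic 6 the pooled r was -0.85 and passed (adjusted permutation p = 0.0170). Without transgenic 1 and transgenic 6 it was -0.89 and passed (adjusted permutation p = 0.00576), and without transgenic 1 it was -0.69 (adjusted 0.174). Within transgenic animals r was -0.62 without transgenic 1, -0.12 without transgenic 6 and -0.94 over the 4 animals left without both. The mean of the 12 genes was higher in transgenic animals (10.85 against 10.27, log2), so the pooled r includes the genotype shift.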

How the data were processed

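RNA was measured on 1-colour arrays. The authors deposited intensities, and the submitters' processing notes name BeadStudio without a version or role. Values below 0 and quartiles that nearly coincide between arrays show that background had been subtracted and arrays normalized; the methods are not given in the sources read. The number of arrays limits the precision. Another table, with 32 columns whose running numbers match no label, was not used. Controls (4 probes) were left out, and 19852 of 24607 probes had 1 symbol in the platform annotation, which can be old. The intensities were passed through limma's normexp step (saddle, offset 16), so folds of dim genes are understated. Then log2 was taken, and quantile normalization was run across the 12 animal arrays. A probe was tested if above noise on at least 3 animal arrays. Tests used limma 3.58.1 in R 4.3.3 (two-sided, Benjamini-Hochberg over all tested probes) and exact permutation tests over 924 assignments. The procedure was tested on simulated arrays. The labels do not tie arrays to chips, so an effect of the chip was not tested. Pools are not replicates. Alternatives covered background, scaling, filter, test and left-out animals.

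Where a gene had several probes the brightest tested one stood for it. Genes named were all members, from each list up to 4 past the threshold or the 3 with the smallest p, and the 5 most alike each member. Krt7, Adgre1, Gas6, Bhlhe40 and genes named as below noise were added after their values were seen. The members and lists were chosen with earlier results of these data known. Gene positions and promoters came from RefSeq (GRCm38.p6); promoters matched 4 of 9 members.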

Additional observations from a re-analysis of the deposited data

Results flagged for a closer look

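Timd4 in transgenic 6, at 138 units, stood apart from the other 5 transgenic animals, which read 60.4 to 79.9 units. On the log2 scale the gap to the next animal was 0.710 of the range of the genotype, against a critical value of 0.625 for 6 samples (Dixon, 95%). Of 14 groups examined (7 genes in 2 genotypes) this was the only one past that value, and chance marks about 1 group in 20. The same animal was the highest of its genotype for Gata6, Icam2 and F10.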

How the results depend on the processing

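No paired analysis was possible because the animals carry no shared replicate numbers, and only the pools are numbered. Over all tested probes 11 passed as higher and 66 as lower. The counts were 7 and 38 with values floored at 16 and no normexp, 7 and 35 without a filter, 5 and 28 when all 12 arrays had to exceed noise, 0 and 0 with the exact Mann-Whitney test (784 at an unadjusted p under 0.05), and 7 higher without transgenic 1 and transgenic 6. Leaving out single animals gave 6 to 15 higher and 34 to 78 lower. The number of tested members that passed was 0 and became 1 (Gata6) without transgenic 1 and transgenic 6; over single animals it ran from 0 to 1, with Gata6 between -1.14 (without transgenic 6) and -0.72. Array weights gave Gata6 -0.97 (limma adjusted p = 0.104). Timd4 ran from -0.33 to -0.22 over single animals, with adjusted p from 0.185 to 0.695. The sign turned over single animals for Icam2 (-0.26 to 0.10), Selp (-0.04 to 0.17) and F10 (-0.04 to 0.18). Among pairs of members 0 passed, and 0 to 1 over single animals left out. The median SD between animals over the members was 0.64 without normexp and with values floored at 16, against 0.37, and 0.32 to 0.38 over single animals. Of the genes on the other lists 10 passed, against 6 with the floor and no normexp, 6 without a filter, 5 when every array had to exceed noise, and 7 to 13 over single animals. With the bare GATA motif, added after the data were seen, 2 promoters matched. The cause of these shifts was not tested. Selp and F5 could not be tested when a reading above noise was required on all arrays. Each member had 1 probe, so no other probe could be tried. Leaving out animals from the marker correlations, the within-genotype pairs and the ranges was also added after the data were seen.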
